A study of Mus musculus with 8 samples.

Results

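The miRNAs described here are mmu-miR-455, mmu-miR-140 and mmu-miR-140*, 3 of the 567 mouse miRNAs on the array and 3 of the 133 that were called detected on at least 3 of 8 arrays. They were selected on measured values, since miR-455 had the largest fall of the tested miRNAs in CCL4 liver, and on genome position. The miR-455 gene, Mir455, lies inside Col27a1, which encodes a fibrillar collagen chain. The gene of both miR-140 arms, Mir140, lies inside Wwp2, which encodes a ubiquitin ligase. In RefSeq each of these miRNA genes has the same strand as its host gene.

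Liver RNA of adult male C57BL/6J mice, 8 weeks old at the start, was hybridized to single-colour Agilent miRNA arrays. CCL4 mice received carbon tetrachloride, a hepatotoxin that causes liver fibrosis on repeated dosing, dissolved in olive oil and injected into the abdomen, while control mice received the oil alone. Both treatments were given more often in the first 4 weeks than in the next 4. Data of 5 CCL4 arrays (1 at 4 weeks, 2 at 6 weeks, 2 at 8 weeks) and 3 olive oil arrays (1 at each week) were analysed. The study's methods do not state if the RNA of an array came from 1 animal or from several, so n is the number of arrays and every p-value measures only the spread between these samples.

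A miRNA is cut from a hairpin, and either arm of the hairpin can be loaded into an Argonaute protein. Bases 2 to 8 of the loaded strand, the seed, pair with target mRNAs and lower their output. A miRNA in an intron can be transcribed together with its host gene. Both hairpins are best known from cartilage, where miR-140 is needed for normal skeletal growth and where miR-455 is made during chondrocyte differentiation. In fibrotic liver, collagen is deposited mainly by activated stellate cells and myofibroblasts.

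The mature strands of these hairpins found in the RefSeq table used (build GRCm38.p6) are shown with the seed in capitals, 5′ to 3′. They are given because the array names do not say which arm is meant. The array's mmu-miR-455 is the 3p strand, at chr4:63256904-63256924 on the plus strand, and its partner, mmu-miR-455*, is the 5p strand, at chr4:63256867-63256888. In the array annotation and in RefSeq alike, 36 bases separate the 3′ ends of these arms. The array's mmu-miR-140* is the 3p strand of its hairpin, at chr8:107551288-107551308, also plus. The table held no mature strand for mmu-miR-140, the other arm of that hairpin, so its sequence and seed are not shown.
mmu-miR-455-3p: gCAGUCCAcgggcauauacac
mmu-miR-455-5p: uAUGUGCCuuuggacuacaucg
mmu-miR-140-3p: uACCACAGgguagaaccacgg
The members printed have different seeds. Among the 1738 mature strands of the table, none other had the seed of miR-455-3p. The seed of miR-140-3p recurred only in mmu-miR-497b, which has no probe of that name on the array.

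The arrays called 117 to 158 mouse miRNAs detected, and none of their spots was saturated. All 8 arrays lay on 1 slide with 2 rows and carried 1 scan time. Before scaling, the 113 miRNAs detected on every array had a median signal of 80.7 to 162 on CCL4 arrays and of 65.9 to 90.4 on olive oil arrays, and these ranges overlapped. Scaled values are the signal divided by the array's 75th percentile over all 567 miRNAs, in log2. That percentile was 6.53 to 11.0 on CCL4 arrays and 4.71 to 6.48 on olive oil arrays, and the lowest signal called detected was 5.59 to 8.16 on 7 arrays and 0.139 on the remaining one, from CCL4 mice at 4 weeks. The hepatocyte miRNAs miR-122, miR-192, miR-194 and miR-802 were detected on all arrays. The list of 5 chondrocyte miRNAs holds the members, of which miR-140 and miR-140* were detected on 8 arrays and miR-455 on 7. The others of that list, miR-675-5p and miR-675-3p, were detected on none.

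The miR-455 signal, with no scaling, was low on every array. In CCL4 mice it was 6.57 after 4 weeks, 5.86 and 16.2 after 6, and 16.8 and 8.95 after 8. On the olive oil arrays it was 9.66, 14.2 and 14.3 at 4, 6 and 8 weeks. The 2 brightest and the 3 dimmest of the 8 values were all on CCL4 arrays, so the treatments overlapped, and the value of 5.86 was called not detected. The scanner software gave these signals an error of 2.74 to 4.42, and the signal was 2.00 to 5.17 times its error. The unscaled mean was 10.9 ± 5.26 (SD, n = 5) on CCL4 arrays and 12.7 ± 2.66 (SD, n = 3) on olive oil arrays.

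After scaling, the log2 level of miR-455 was -0.53 in CCL4 mice after 4 weeks, -0.16 and 1.10 after 6, and 0.61 and 0.04 after 8. On the olive oil arrays it was 0.92, 1.59 and 1.14 at 4, 6 and 8 weeks. Each CCL4 array lay under the control of the same week, and 4 of 5 were below every olive oil array. The second CCL4 array of 6 weeks overlapped the olive oil values. Of the 133 tested miRNAs, 43.6% had every CCL4 array below every olive oil array on this scale. Without scaling, 3 of 5 CCL4 arrays were below the olive oil array of their week for miR-455.

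**Figure D1:**
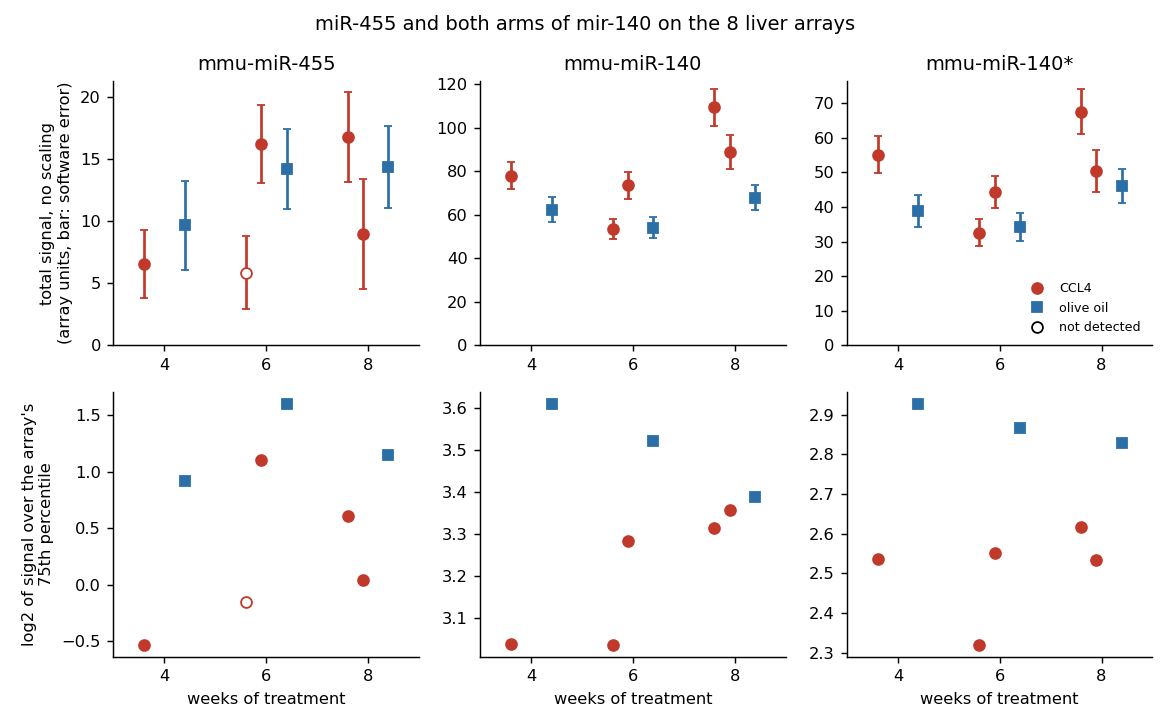
Levels of the 3 miRNAs by week of treatment, with CCL4 arrays as circles and olive oil arrays as squares. The upper row shows the total signal with no scaling, with bars for the software error, and the lower row shows the log2 of the signal over the array's 75th percentile. Scaled levels of miR-140 and miR-140* are lower on all 5 CCL4 arrays than on any olive oil array, as in 43.6% of the 133 tested miRNAs. Without scaling most CCL4 arrays lie above every olive oil array for both miR-140 arms. For miR-455, 2 CCL4 arrays lie above and 3 below every olive oil array. The open circle is the miR-455 value called not detected.

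The scaled log2 difference of miR-455, CCL4 minus olive oil with week in the fit, was -1.10 (SE 0.270, 95% interval -1.70 to -0.50, n = 5 and 3), a level 0.467 of that in control mice. That SE draws on spread pooled over the tested miRNAs, while the residual SD of miR-455 itself was 0.516. Without the detection filter the SE of the same difference was 0.368, so the interval understates the spread of miR-455 itself. Taken week by week, the difference was -1.45, -1.12 and -0.82 at 4, 6 and 8 weeks. The medians over the tested miRNAs in these weeks were -0.50, -0.43 and -0.13. The miR-455 values belong to the contrast that selected it and are a description. In whole liver, fewer cells of a type and less RNA per cell cannot be told apart. In that contrast limma with Benjamini-Hochberg adjustment called 18 of the 133 miRNAs higher (13.5%) and 47 lower (35.3%). None of the 133 had a lower difference than miR-455. The median difference of the 133 was -0.32, so relative to the median miR-455 was at -0.78.

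The size of the miR-455 difference moved with the scaling and the background correction. It was -0.90 when only miRNAs detected on every array entered the percentile, -1.27 after quantile normalization, -0.43 with no scaling and -0.10 after normexp background correction. The last setting adds a constant of 50 to every spot, which compresses dim signals. It also averages the probes of a miRNA in log2, where the other settings sum them. The share of each step in the smaller value was not tested. The median of the tested miRNAs moved over the same settings from -0.32 to -0.12, -0.06, 0.35 and 0.05. Relative to that median, miR-455 was at -0.78 with no scaling, at -1.20 after quantile normalization and at -0.14 after normexp, where 8 of 133 miRNAs had a lower difference. Within the first row of the slide, with 2 arrays per treatment, the scaled difference was -1.60, and within the second row, with 3 CCL4 arrays and 1 olive oil array, it was -0.56. The 4-week arrays were all in the first row and the 8-week arrays all in the second. Only the 6-week CCL4 pair was split, so row and week cannot be told apart in these values.

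**Figure D2:**
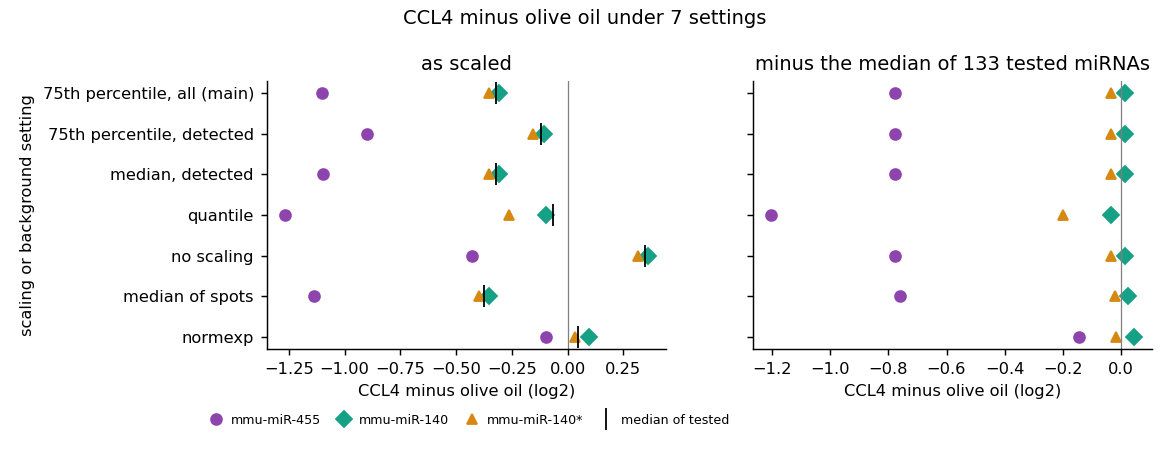
Log2 difference between CCL4 and olive oil, with week in the fit, for the 3 miRNAs under 7 scaling or background settings. The left panel gives the difference itself with the median of the 133 tested miRNAs as a vertical mark, and the right panel gives it after subtracting that median. Both miR-140 arms turn positive with no scaling and after normexp and stay within 0.05 of the median, except miR-140* at -0.20 after quantile normalization. For miR-455 the right panel shows -0.78 in the 4 settings that differ only by a factor per array, which cannot move it, and -1.20 after quantile normalization and -0.14 after normexp.

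The miR-455 signal came from 1 of its 2 probes. One probe is annotated to 15 bases at the 3′ end of the strand (mm9, chr4:62917944-62917958) and the other to 16 bases (chr4:62917943-62917958), with 10 spots of each on an array. With the spots left out that the software marked as outliers, 0 of 76 spots of the 15-base probe over the 8 arrays were well above background, and its median spot was -1.64 to 2.08 on CCL4 arrays and 0.109 to 1.17 on olive oil arrays. Of the 16-base probe, 38 of 75 spots were well above background, 18 of 46 on CCL4 arrays and 20 of 29 on olive oil arrays. Its median spot was 9.11 to 20.2 on CCL4 arrays and 14.5 to 19.3 on olive oil arrays. These ranges overlapped. On 3 of the 5 CCL4 arrays, the one of 4 weeks, the first of 6 weeks and the second of 8 weeks, no spot kept of either probe was well above background, although the software called miR-455 detected on 2 of these 3. On the control array of 4 weeks 1 of 9 such spots of the 16-base probe was, so the low spots were not limited to CCL4 arrays. The scaled difference of the 16-base probe alone was -1.25, -1.09 and -0.68 at 4, 6 and 8 weeks.

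**Figure D3:**
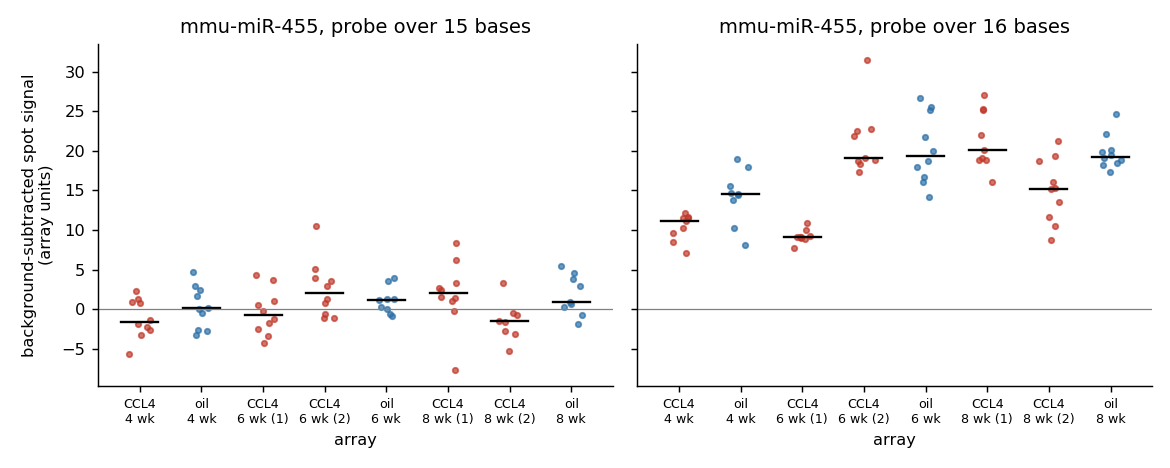
Background-subtracted signal of each miR-455 spot on the 8 arrays, for the 15-base probe on the left and the 16-base probe on the right. CCL4 is red and olive oil is blue, the black line is the median of an array's spots, and spots marked as outliers by the software are left out. The 15-base probe scatters around 0 on every array, and the 16-base probe has medians of 9.11 to 20.2 on CCL4 arrays and 14.5 to 19.3 on olive oil arrays.

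The software error also bears on each array pair. With no scaling, the signal of miR-455 differed from the olive oil array of the week by more than the combined error of the pair on 1 of 5 CCL4 arrays, the first of 6 weeks. After scaling, the difference was 1.09 to 2.60 times that error. The software error holds neither the spread between liver samples nor the error of the scale factor, and these are values of the contrast that selected miR-455. The paired CCL4 arrays of miR-455 differed 2.77-fold at 6 weeks and 1.87-fold at 8 weeks in unscaled signal. In scaled log2 these pair differences were 1.26 and 0.56, against medians of 0.317 and 0.111 over the tested miRNAs, and only 1 and 6 of the 133 had larger ones.

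The partner strand of miR-455, the 5p strand, was detected on 0 of 8 arrays. Its signal was 0.882 to 7.14 on CCL4 arrays and 3.67 to 5.50 on olive oil arrays. After scaling, its log2 level was -3.43 to -0.62 on CCL4 arrays and -0.42 to -0.24 on olive oil arrays. These ranges did not overlap, as in 43.6% of the 133 tested miRNAs. The strand was not among those tested, since no array called it detected, and no difference is read from these values.

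The miR-140 signal, with no scaling, was 78.0 in CCL4 mice after 4 weeks, 53.5 and 73.5 after 6, and 109 and 89.0 after 8. On the olive oil arrays it was 62.3, 54.0 and 67.9 at 4, 6 and 8 weeks. Of the CCL4 arrays, 4 were above every olive oil array and the first of 6 weeks was just below all of them. The signal was 11.0 to 12.7 times its software error. All 80 spots of its 20-base probe and all 80 of its 21-base probe were well above background (mm9, chr8:110075151-110075170 and chr8:110075150-110075170).

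After scaling, the log2 level of miR-140 was 3.04 in CCL4 mice after 4 weeks, 3.04 and 3.28 after 6, and 3.31 and 3.36 after 8. On the olive oil arrays it was 3.61, 3.52 and 3.39. All 5 CCL4 arrays were then below every olive oil array, as in 43.6% of the 133 tested miRNAs. Before scaling most arrays showed the reverse. The scaled difference was -0.31 (SE 0.156, 95% interval -0.65 to 0.04, n = 5 and 3), and it was 0.36 with no scaling and 0.10 after normexp. By week the scaled difference was -0.57, -0.36 and -0.05 at 4, 6 and 8 weeks, beside medians over the tested miRNAs of -0.50, -0.43 and -0.13. The whole difference was 0.01 above the median of the tested miRNAs, with 68 of 133 lower.

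The miR-140* strand, whose sequence is shown above as miR-140-3p, had an unscaled signal of 55.1 in CCL4 mice after 4 weeks, 32.6 and 44.3 after 6, and 67.6 and 50.3 after 8. On the olive oil arrays it was 38.8, 34.3 and 46.1 at 4, 6 and 8 weeks. As with miR-140, most CCL4 arrays were brighter, here 3 of 5 above every olive oil array. Its 15-base probe (mm9, chr8:110075194-110075208) was well above background on all 80 spots, and of the 14-base probe (chr8:110075195-110075208) 15 of the 74 spots not marked as outliers were.

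After scaling, the log2 level of miR-140* was 2.54 in CCL4 mice after 4 weeks, 2.32 and 2.55 after 6, and 2.62 and 2.53 after 8. On the olive oil arrays it was 2.93, 2.87 and 2.83. Every CCL4 array lay below every olive oil array on this scale, as in 43.6% of the 133 tested miRNAs. The difference was -0.35 (SE 0.144, 95% interval -0.67 to -0.04, n = 5 and 3), and it turned to 0.32 with no scaling and to 0.03 after normexp. By week it was -0.39, -0.43 and -0.25. Relative to the median of the tested miRNAs it was -0.03.

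Dividing one signal by another on the same array removes the scale factor, and then only the change of the ratio between arrays can be read, since probes differ in brightness. The log2 ratio of miR-140* to miR-140 was -0.69 ± 0.12 (SD, n = 5) on CCL4 arrays and -0.63 ± 0.07 (SD, n = 3) on olive oil arrays. The treatments overlapped, from -0.82 to -0.50 and from -0.68 to -0.56. The difference of -0.06 was smaller than the SD of this ratio over the 8 arrays, 0.101. In 10 other hairpins with both arms tested, the same difference ranged from -0.25 to 0.71 with a median of 0.08, and in 4 of the 10 it was closer to 0 than in mir-140. The log2 ratio of miR-455 to miR-140 was -2.99 ± 0.55 (SD, n = 5) on CCL4 arrays and -2.29 ± 0.38 (SD, n = 3) on olive oil arrays. Its ranges overlapped, from -3.57 to -2.18 and from -2.69 to -1.93, and the difference of the means was -0.70. This difference compares the treatments as the selection of miR-455 did, so it is a description and not separate support.

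Whether the treatment difference changed between weeks, and whether CCL4 liver changed from 6 to 8 weeks, are questions the selection did not use. The interaction of treatment and week passed the limma test in 8 of the 133 miRNAs (6.02%) and in none of the 3 members. Its adjusted p was 0.806 for miR-455, 0.806 for miR-140 and 0.984 for miR-140*. CCL4 arrays of 8 and 6 weeks differed in 6 of the 133 (4.51%) and in none of the members by the same limma adjustment. Before adjustment 19 and 17 of the 133 had p under 0.05.

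From 6 to 8 weeks of CCL4, the scaled log2 change was -0.15 for miR-455 (95% interval -0.61 to 0.31, limma adjusted p = 0.731). For miR-140 it was 0.18 (-0.28 to 0.63, adjusted p = 0.696) and for miR-140* it was 0.14 (-0.32 to 0.60, adjusted p = 0.742). These intervals allow changes of either sign. The fit gave all miRNAs the same SE, 0.232, so the intervals and p-values carry spread pooled over the tested miRNAs. That SE is smaller than the miR-455 pair difference at 6 weeks, 1.26. Without the detection filter the SE of miR-455 was 0.644, so its interval above understates its own spread. When the first CCL4 array of 6 weeks was left out, the change of miR-455 was -0.78. With the second left out it was 0.48, so the direction rested on that pair. It also turned, to 0.13, without the second CCL4 array of 8 weeks. Without the second CCL4 array of 6 weeks, only the 8-week CCL4 pair was left to give spread for the interaction, so no call is read from that fit.

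The miRNAs whose scaled levels ran most like those of each member were named by Pearson's r over the 8 arrays, with no test, since all points share the arrays and the scale factor. For miR-455 they were miR-146a (r 0.941), miR-331-3p (0.932), miR-365 (0.925), miR-139-5p (0.910) and miR-202-3p (0.904), against a median r of 0.627 over all tested miRNAs. Without scaling the first of these was 0.865 and the second 0.675. For miR-140 they were miR-212 (r 0.989), miR-101a (0.973), miR-98 (0.962), miR-361 (0.961) and miR-720 (0.960), the last since regarded as a tRNA fragment, with a median of 0.720. For miR-140* they were miR-7a (r 0.962), miR-338-3p (0.958), miR-98 (0.931), miR-92a (0.929) and miR-28 (0.911), with a median of 0.644. The members themselves had r of 0.880 between both arms of mir-140 and 0.784 between miR-455 and miR-140. Without scaling these were 0.959 and 0.307.

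A set of miRNAs known to repress collagen mRNAs, none of them a member, was measured on the same arrays. Of miR-29a, miR-29b, miR-29c, miR-133a, miR-196a and miR-196b, the last 3 were detected on no array. The miR-29 strands were lower in CCL4 liver by the scaled fit, at -0.68, -0.60 and -0.89 in log2 (limma adjusted p 0.0135, 0.0209 and 0.0135), and without scaling or after normexp no miRNA was called lower. Of 9 miRNAs tied to TGF-beta and SMAD signalling, 7 were tested and 2 fell on the scaled level, miR-146a at -0.87 (limma adjusted p = 0.0118) and miR-23b at -0.48 (limma adjusted p = 0.0232), both calls also lost without scaling. The others were miR-21 at -0.08, miR-18a at 0.42, miR-130a at -0.17, miR-27b at -0.36 and miR-24 at -0.19, and miR-145 and miR-224 were detected on no array. The share lower, 2 of 7, was 28.6% against 35.3% of all tested, and the median of the 7 was -0.19, beside -0.32.

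Residence in a protein-coding gene is shared by many tested miRNAs. Of the 133, 114 matched a RefSeq miRNA gene, and 41 beside the members had every locus inside a protein-coding gene on the same strand. Among these 41, 4 were higher and 13 lower in CCL4 liver, 31.7% lower against 35.3% of all tested, with a median difference of -0.33.

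Lists of cell type markers were read on the same arrays, beside 13.5% of all tested miRNAs called higher and 35.3% lower. The summed scaled level of the 4 hepatocyte miRNAs was 2331 to 4125 on CCL4 arrays and 5263 to 5884 on olive oil arrays, with 3 of the 4 lower and miR-802 higher by limma. Without scaling the sum was 21293 to 40780 and 27692 to 34119, which overlapped, and the lower calls were lost. Of 6 stellate and mesenchymal miRNAs, 5 were tested and 4 were higher, among them miR-199a-5p, miR-199b and miR-214, with a summed scaled level of 30.6 to 50.3 against 22.4 to 29.4, and miR-145 was detected on no array. Without scaling that sum was 199.8 to 554 against 105 to 191. Of the biliary epithelial miRNAs 3 of 8 were tested and 2 were higher. None of the 3 leukocyte, 2 endothelial and 3 erythroid miRNAs tested was called in either direction. Their part in the member values was not tested.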

How the data were processed

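The deposited intensity values are background-subtracted signals summed over the probes of a miRNA, from Feature Extraction 10.5.1.1 per the file headers. The methods name another version of the software and another scanner. The deposited table of log2 values equalled the log2 of these signals, with signals under 1 set to 1, to within 1.107e-06 over 4536 values, so no scaling between arrays had been applied.

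Signals were divided by each array's 75th percentile over 567 mouse miRNAs, given a floor of 0.01 and converted to log2. The 133 miRNAs detected on at least 3 arrays were fitted with limma 3.58.1 in R 4.3.3, with week and treatment as factors (4 residual degrees of freedom), and with a mean per group (2 residual degrees of freedom) for the interaction and for CCL4 at 8 against 6 weeks. In the latter, groups of 1 array were assumed to vary like the CCL4 pairs. Adjusted p is by Benjamini-Hochberg over the 133, with a threshold of 0.05. The fits were tested on simulated data. The number of arrays limits the precision.

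The members and the lists were chosen with earlier results of these data known. Named miRNAs were the members, 6 collagen repressors, 9 miRNAs of TGF-beta and SMAD signalling, the 5 miRNAs most correlated with each member, and cell type markers. Mature sequences and host genes were taken from RefSeq by name, and 2 of 3 members matched a mature strand. Alternatives covered scaling, floor, background correction, filters, the week term, a variance trend, the replicate block and leaving out each array. Cyclic loess and the slide row as a covariate were added after seeing the data. Human biopsies and cell line experiments were not analysed here.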

Additional observations from a re-analysis of the deposited data

Results flagged for a closer look

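On the scaled log2 scale, the miR-140* level of the first CCL4 array of 6 weeks, 2.32, stood apart from the other 4 CCL4 arrays, which lay between 2.53 and 2.62. The gap was 0.722 of the range of the 5 values. Chance gives a gap of this size in about 1 of 20 groups, 6 sets of values were examined, and this group pools 3 time points. The same array had the lowest unscaled signal of all 3 members among the CCL4 arrays.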

How the results depend on the processing

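For miR-455, whose selection fixed the direction, the difference between CCL4 and olive oil was negative in each alternative that gave a value. The filter on detection on all 8 arrays gave none, since miR-455 was detected on 7. The difference was -0.43 with no scaling and in the deposited log2 table and -0.10 after normexp, and -1.29 to -0.91 when arrays were left out 1 at a time. Both miR-140 arms turned. For miR-140 the difference was 0.36 with no scaling and in the deposited table and 0.10 after normexp, and -0.11, -0.10 and -0.075 with the percentile over miRNAs detected on all arrays, quantile normalization and cyclic loess. For miR-140* it was 0.32, 0.32 and 0.032 under the first 3 of these, -0.15 with that percentile and -0.16 with cyclic loess. Leaving out arrays gave -0.45 to -0.21 and -0.41 to -0.31.

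The change of miR-455 from 6 to 8 weeks of CCL4 was 0.033 after quantile normalization, 0.33 with no scaling and in the deposited table, 0.012 after normexp, and -0.78 to 0.48 when arrays were left out. With the slide row as a covariate it was -0.78 (limma adjusted p = 0.00322), with an interaction at 0.0320, because that fit takes the row effect from the 6-week pair alone. That fit gave the members the same SE, 0.199, so its p-values rest on spread pooled over miRNAs. Leaving out arrays gave the interaction of miR-455 an adjusted p of 0.0320 to 0.997. The 6 to 8 week change of miR-140 was -0.16 with the percentile over miRNAs detected on all arrays, -0.0091 after quantile normalization and -0.029 after cyclic loess, and that of miR-140* was -0.19, -0.070 and -0.054. The interaction of miR-140 passed after quantile normalization (limma adjusted p = 0.0414). The causes of these shifts were not tested.

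Of the tested miRNAs, 18 were higher and 47 lower. These counts were 21 and 10 with the percentile over detected miRNAs, 20 and 69 with the median over the same miRNAs, and 12 and 18 after quantile normalization. They were 34 and 0 with no scaling, 45 and 0 in the deposited table, 9 and 0 after normexp, and 11 and 48 with spot medians. They were 5 and 0 without a detection filter, 11 and 16 without the week term, and 23 and 19 after cyclic loess. Leaving out arrays gave 8 to 14 and 5 to 60, with 5 lower when the 6-week control was dropped, 7 when either 4-week array was, and 30 when the first 6-week CCL4 array was. The interaction count of 8 ranged from 0 to 31 and the 8 against 6 week count of 6 from 0 to 35. Replicate numbers are shared by the CCL4 pairs only, whose same-numbered deviations had r of 0.051 over miRNAs, so they were not taken to pair arrays. With the replicate block the differences were -1.24 for miR-455, -0.38 for miR-140 and -0.38 for miR-140*, and no call on a member changed.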
